A study of Mus musculus with 56 samples.

Results

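Liver RNA of 55 of the 56 mice was ordered by how many copies of Gckr, the gene of the glucokinase regulatory protein (GKRP), carried leucine at residue 446, taken from the sample titles: 0 in GKRP-446P mice (PP, 19 livers), 1 in GKRP-446P/L mice (PL, 16 livers) and 2 in GKRP-446L mice (LL, 20 livers). All mice were males of 1 knock-in line made by genome editing, aged 28 weeks. All were kept on HFHSD, a diet rich in fat and sugar (45% of energy as fat, with 10% glucose and 5% fructose in the drinking water) for 20 weeks. A glucokinase activator (GKA, 3 mg/kg in the diet) was given to 28 of them, namely 10 PP, 8 PL and 10 LL, and the other 27 were untreated (9 PP, 8 PL and 10 LL). Mouse 7 (PP, untreated), which the study had removed, was left out. For each gene a single model gave the slope, which is the change in log2 expression per 446L allele, with GKA (yes or no) as a covariate, so that a slope of 0.50 corresponds to a doubling between PP and LL.

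GKRP is an inhibitory protein of the hepatocyte nucleus that holds its enzyme partner inactive when glucose is low and releases it to the cytoplasm when glucose or fructose rises. It thereby governs how fast the hepatocyte turns glucose into glycolytic intermediates, glycogen and fat. The common human variant that replaces proline by leucine at residue 446 is known for lower fasting glucose and for higher plasma triglyceride and liver fat. The allele whose dose is followed here lies in exon 15 of 19 of Gckr, at codon 446, which is a proline codon in the mouse reference (GRCm39, chr5:31466275-31466277, plus strand, transcript Gckr-202). The reference coding sequence around it is shown because this codon is the only designed difference between the genotypes. The introns are left out, and the window of 57 bases lies within chr5:31466248-31466391, with codon 446 in capitals.
Gckr codon 446: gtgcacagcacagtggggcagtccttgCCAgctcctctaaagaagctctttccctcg

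Total reads ranged from 5189852 to 8093368 per liver, with a median of 6559023, and the ranges of the genotypes overlapped. All 10 hepatocyte markers were detected, and their summed level had medians of 116200 CPM (counts scaled to a common library total) in PP livers, 103000 CPM for PL and 107100 CPM for LL. Some measures of the libraries moved with the dose. The ribosomal RNA gene Rn18s-rs5 was at 202 to 367 CPM in PP (median 260.1 CPM), at 238 to 1151 CPM in PL (median 361 CPM) and at 214 to 5872 CPM in LL (median 499 CPM), and the 4 livers above 1000 CPM were 1 PL and 3 LL. A clock component, the first principal component of 19 clock genes (70.97% of their variance, in SD units, higher where Dbp was higher), had a median of -0.94 (PP), 0.63 (PL) and 0.18 (LL). The summed blood markers reached 712 CPM (PP), 1195 CPM (PL) and 2962 CPM (LL), with medians of 464, 519 and 488 CPM. The summed adipose markers had medians of 26.5, 22.6 and 55 CPM, with highest values of 108, 93.8 and 139.6 CPM. The labels give neither batch nor time of day at tissue collection, and the part of these measures in the slopes was addressed only by the settings given beside the gene groups.

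**Figure D1:**
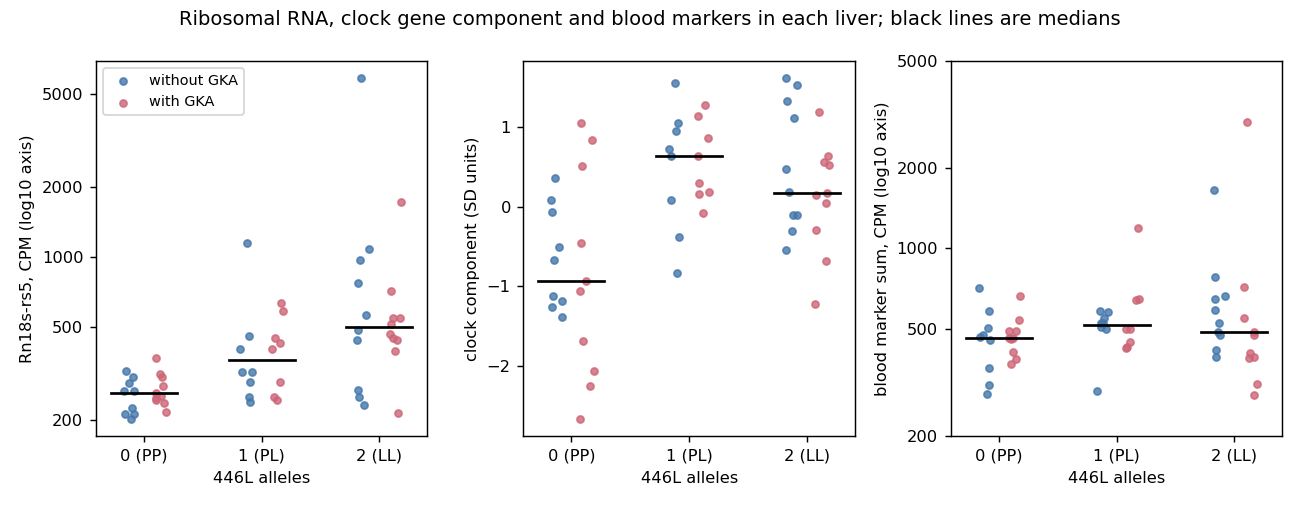
Level of Rn18s-rs5 (CPM, log10 axis), the clock component (SD units) and the summed blood markers (CPM, log10 axis) in each of 55 livers by number of 446L alleles, with black lines at the medians and colours for GKA. PP livers lie at 202 to 367 CPM of Rn18s-rs5, and 14 of the 19 are below 0 on the clock component against 7 of 20 LL livers, whereas the highest values of Rn18s-rs5 and of the blood markers are in LL livers.

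Of 11477 genes tested, 172 rose with the dose (1.5%) and 233 fell (2.03%) at an adjusted p below 0.05, and these are the genes called rising or falling in the text. The threshold for a differentially expressed gene, a fold of at least 1.3 or at most 0.7 between PP and LL in addition, was met by 95 rising (0.828%) and 84 falling genes (0.732%). The changes per allele were small, with a median slope of 0.20 for rising genes (14.9% per allele) and -0.21 for falling genes, a change of -13.4% per allele. The median slope of all tested genes was 0.0013. In none of the called genes (0 of 405) did the 19 PP livers and the 20 LL livers separate without overlap, and this held for all 11477 genes. In 329 of the called genes (81.2%) the PL mean lay between the PP and LL means, against 34.2% of all tested genes, a description that the selection on a linear slope itself raises.

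The transcript of the edited gene fell slightly with the dose. Gckr had medians of 169 CPM (PP), 166 CPM (PL) and 147 CPM (LL), within ranges of 141 to 230.3 CPM, 136 to 218 CPM and 116 to 193 CPM. Its slope was -0.10 (SE 0.03, edgeR adjusted p = 0.0346), and the call was lost when any of 10 livers was left out (PP mice 2, 3, 4, 16 and 17, and LL mice 37, 39, 46, 48 and 49). With an offset for transcript length the slope of Gckr was -0.13, with an adjusted p of 0.865.

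**Figure D2:**
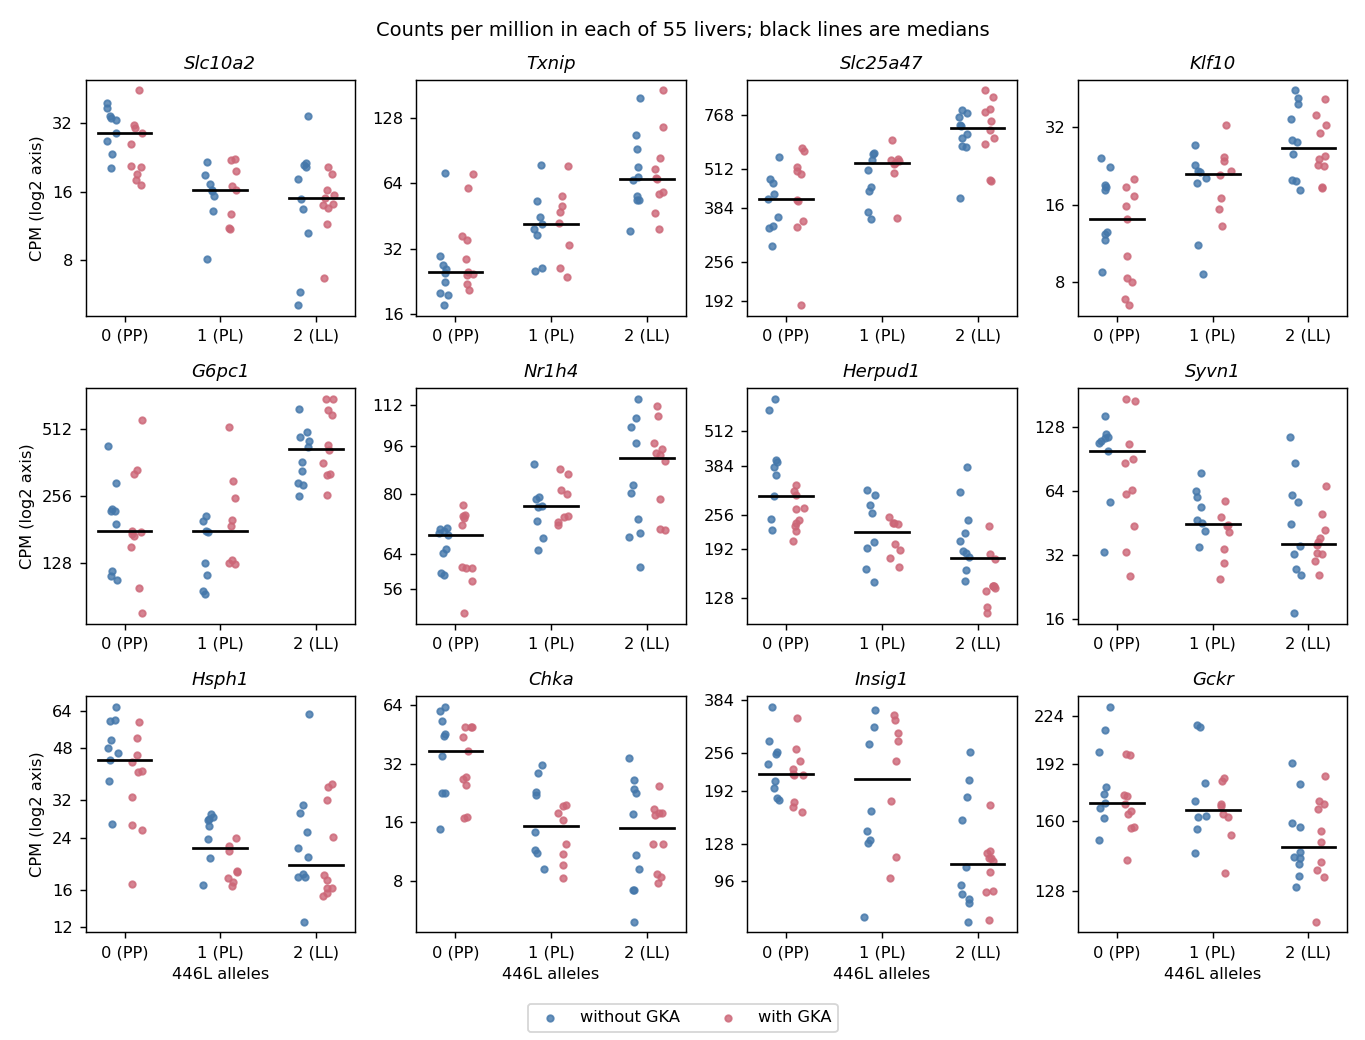
CPM (log2 axis) of 12 named genes in each of 55 livers by number of 446L alleles, with black lines at the medians and colours for livers without and with GKA. The medians of Txnip, Slc25a47, Klf10 and Nr1h4 are higher at each allele and that of G6pc1 is higher only in LL, whereas in LL those of Slc10a2, Herpud1, Syvn1, Hsph1, Chka, Insig1 and Gckr are lower than in PP, and the groups overlap in every panel.

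Genes that respond to hexose phosphates through the transcription factor ChREBP, with those of fructolysis and glycolysis, formed a list of 21. Of these 3 rose, against 1.5% of all tested genes, and none fell. Txnip, which codes for a thioredoxin-binding arrestin that is induced by glucose, was at 17.6 to 71.4 CPM in PP (median 25 CPM), at 23.7 to 78.1 CPM in PL (median 41.7 CPM) and at 38.4 to 171 CPM in LL (median 67.3 CPM). Only 3 of 19 PP livers were above the lowest LL liver, and 8 of 20 LL livers were above the highest PP liver. The slope of Txnip was 0.65 (SE 0.09, edgeR adjusted p = 2.12e-05), a change of 56.5% per allele. Klf10, a glucose-induced zinc finger repressor, rose from a median of 14.1 CPM in PP livers to 21.1 CPM for PL and 26.6 CPM for LL (slope 0.49, SE 0.08, edgeR adjusted p = 3.88e-05). The call of Klf10 was lost with the length offset and in the livers without GKA alone. Rgs16, a regulator of G protein signalling that follows glucose intake, also rose (slope 0.58, SE 0.16, edgeR adjusted p = 0.0317), but its call was lost without any of PP mice 1 and 2 or LL mice 41, 45 and 47. It was also lost in 9 of 15 other settings, among them no filter on low counts, PP and LL livers only, either covariate, the length offset, and leaving out the livers with most Rn18s-rs5 or blood markers. The other 18 were not called, and the median slope of the list was -0.03. Pklr (liver pyruvate kinase, slope -0.03, SE 0.06) and Mlxipl (ChREBP itself, slope -0.02, SE 0.05), which are named here after their values were seen, had adjusted p of 0.893 and 0.92 in edgeR.

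Of 14 genes of glucose output, 3 rose, against 1.5% of all tested genes, and none fell. G6pc1, the catalytic subunit of glucose 6-phosphatase that releases free glucose from the hepatocyte, was at 76.3 to 563 CPM in PP (median 179 CPM), at 92.9 to 525 CPM in PL (median 178 CPM) and at 255 to 699.6 CPM in LL (median 418 CPM). The PP and PL medians were alike, and the increase lay between PL and LL. Its slope was 0.50 (SE 0.10, edgeR adjusted p = 0.00205). Slc2a2, the glucose transporter GLUT2 of the hepatocyte membrane, had medians of 235 CPM, 275 CPM and 278 CPM in PP, PL and LL, with most of the step between PP and PL (slope 0.15, SE 0.03, edgeR adjusted p = 0.00116). Creb3l3, a liver transcription factor of fasting lipid metabolism, had a slope of 0.10 (SE 0.03, edgeR adjusted p = 0.0371), a call lost in 13 of 55 fits without 1 liver. The median slope of the list was 0.07. With the clock component as covariate or with the length offset 1 of the 14 was called, and without the livers with most Rn18s-rs5 or blood markers 2 were.

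Besides Txnip and Klf10, the coding genes among the 12 rising genes with the smallest p were Brap, Slc25a47, Crybg2, Nr1h4, Tmed5, Gpcpd1, Palmd and Slc23a2. Brap, which codes for a RAS-regulating ubiquitin ligase, ranged from 56.1 to 81.1 CPM in PP (median 69.7 CPM), from 71.3 to 102 CPM in PL (median 81.1 CPM) and from 76.7 to 111 CPM in LL (median 93.8 CPM). The PP and LL ranges met only between 76.7 and 81.1 CPM. Its slope was 0.21 (SE 0.02, edgeR adjusted p = 1.25e-07). Brap shares exon sequence with Acad10, and under the length offset its adjusted p was 0.162. Slc25a47, a mitochondrial carrier of the liver, was at 186 to 599 CPM in PP (median 410.2 CPM), 352 to 638 CPM in PL (median 535 CPM) and 414 to 922 CPM in LL (median 698 CPM). The median rose at each allele, 17 of 20 LL livers were above the highest PP liver, and the slope was 0.35 (SE 0.05, edgeR adjusted p = 2.12e-05).

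Gpcpd1, a phosphodiesterase that releases choline from glycerophosphocholine, had medians of 19.4 CPM (PP), 40.5 CPM (PL) and 45.3 CPM (LL) (slope 0.65, SE 0.11, edgeR adjusted p = 0.000109). In the same livers Chka, choline kinase alpha, which traps choline for phosphatidylcholine synthesis, fell from a median of 37.2 CPM in PP (14.8 to 62.2 CPM) to 15.4 CPM in PL (8.33 to 31.4 CPM) and 14.9 CPM in LL (4.98 to 34.1 CPM). The PL and LL medians were close, 11 of 19 PP livers were above the highest PL liver, and the slope was -0.63 (SE 0.10, edgeR adjusted p = 0.000109). Crybg2 rose from a median of 3.05 CPM to 5.2 CPM and 6.52 CPM (slope 0.52, SE 0.08), but its slope was -0.05 with the length offset, and it shares exon sequence with Cd52. The vitamin C transporter gene Slc23a2 had a slope of 0.32 (SE 0.06), the cargo receptor gene Tmed5 0.21 (SE 0.03) and Palmd 0.22 (SE 0.04), with edgeR adjusted p of 0.000605, 7.21e-05 and 0.000588. With the length offset Slc23a2, Tmed5, Palmd and Gpcpd1 were not called. In the livers without GKA alone Slc23a2, Tmed5 and Palmd were not called, and in those with GKA alone Slc23a2 was not. The remaining 2 of the 12 rising genes with the smallest p were not coding genes, namely the signal recognition particle RNA gene Rn7s1 (slope 0.84, SE 0.14) and Rn18s-rs5 (slope 0.81, SE 0.14). Both belong to families of near-identical copies, among which reads cannot be assigned with certainty.

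Among the lists examined, that of chaperones and the unfolded protein response of the endoplasmic reticulum (ER) held the most falling genes. The ER folds secreted and membrane proteins, and the unfolded protein response induces its chaperones and the machinery that degrades misfolded proteins when the folding load rises. Of 27 genes of this list 13 fell and none rose, against 2.03% of all tested genes that fell, and 25 of the 27 had a negative slope. The 13 were the chaperones and folding enzymes Hspa5, Hyou1, Pdia4, Dnajb9 and Dnajb11, the degradation genes Herpud1, Syvn1, Edem1 and Sel1l, the secreted stress proteins Manf and Creld2, the kinase gene Eif2ak3 and the transcription factor gene Ddit3. The median slope was -0.16, and it was -0.15 in the livers without GKA and -0.14 in those with GKA. Herpud1, a membrane component of ER-associated degradation, was at 206 to 672 CPM in PP (median 299 CPM), at 146 to 314 CPM in PL (median 221 CPM) and at 112 to 379.8 CPM in LL (median 179 CPM). The medians fell at each allele, and the slope was -0.41 (SE 0.06, edgeR adjusted p = 2.15e-05). Syvn1, the ubiquitin ligase of the same pathway, had medians of 99.2 CPM (PP), 45 CPM (PL) and 36.2 CPM (LL), within ranges of 25.4 to 174 CPM, 24.7 to 78 CPM and 17 to 115 CPM. Most of its decrease lay between PP and PL, and 12 of 19 PP livers were above the highest PL liver (slope -0.53, SE 0.10, edgeR adjusted p = 0.000732). Dnajb9, a co-chaperone (slope -0.41, SE 0.08), and Manf, a secreted ER stress protein (slope -0.39, SE 0.08), also fell, with edgeR adjusted p of 0.000732 and 0.00142.

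Of the transcription factors in the list Ddit3, the stress-induced factor CHOP, fell (slope -0.34, SE 0.07, edgeR adjusted p = 0.00142). Xbp1 had a slope of 0.05, Atf6 of -0.04 and Atf4 of -0.07, and none of these 3 was called. Outside the list, the ER-bound transcription factor gene Creb3l2 fell (slope -0.41, SE 0.07, edgeR adjusted p = 0.000109), from a median of 20.2 CPM in PP livers to 14.7 CPM for PL and 9.63 CPM for LL. Xbp1, Atf6 and Atf4, and the members of the 13 beyond Herpud1, Syvn1, Dnajb9 and Manf, are named after their values were seen. The number of falling members of the list was 11 without the livers with most Rn18s-rs5 and 11 without those with most blood markers. It was 7 with Rn18s-rs5 as covariate, 3 with the clock component as covariate and 3 with the length offset, and the median slope in these 3 settings was -0.15, -0.09 and -0.14.

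The promoters of the falling genes were searched for the ER stress response element, spelled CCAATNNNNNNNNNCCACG, on both strands, in the RefSeq promoter sequences of GRCm38.p6 (250 bases before to 50 bases after the gene start). Of the 233 falling genes 189 had a promoter in that set, and 5 of these held the element (2.65%), against 16 of the 8659 tested genes with a promoter (0.185%) and 37 of all 27025 genes in the set (0.137%). In the ER chaperone list 9 of 23 promoters held it (39.1%), so members of that list make up 9 of the 16 tested genes. Of the 5 falling genes, Hspa5, Syvn1 and Creld2 are such members, so the share among falling genes is not independent of the list result. The 5 falling genes are shown because they fell and carry the element, which begins between positions -220 (Alg12) and -44 (Syvn1) from the start, with the element in capitals in a window of 60 bases. Their windows are chr2:34772004-34772063 (plus strand) for Hspa5, chr19:6046511-6046570 (plus) for Syvn1, chr15:88819499-88819558 (plus) for Creld2, chr15:88819500-88819559 (minus) for Alg12 and chr4:49408197-49408256 (minus) for Acnat2.
Hspa5: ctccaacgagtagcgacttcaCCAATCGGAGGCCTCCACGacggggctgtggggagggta
Syvn1: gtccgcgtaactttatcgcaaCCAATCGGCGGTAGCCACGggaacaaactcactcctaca
Creld2: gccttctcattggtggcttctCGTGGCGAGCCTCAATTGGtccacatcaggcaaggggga
Alg12: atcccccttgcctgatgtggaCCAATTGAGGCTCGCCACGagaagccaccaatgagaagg
Acnat2: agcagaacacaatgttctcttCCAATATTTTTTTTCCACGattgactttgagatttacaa

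Creld2, a secreted ER stress protein, and Alg12, a mannosyltransferase of N-glycan assembly, lie head to head and hold the same copy of the element, read on opposite strands. Both fell, Creld2 with medians of 37.7, 20.6 and 18.4 CPM in PP, PL and LL (slope -0.48, SE 0.11) and Alg12 with medians of 5.95, 3.62 and 3.54 CPM (slope -0.28, SE 0.07). Hspa5, the main ER chaperone BiP, was at 447 to 1573 CPM in PP (median 968 CPM), 419.5 to 889 CPM in PL (median 542 CPM) and 298.5 to 1025 CPM in LL (median 527 CPM), again with the step between PP and PL (slope -0.36, SE 0.08, edgeR adjusted p = 0.00288). Acnat2, an acyl-CoA acyltransferase gene outside the list, fell as well (slope -0.33, SE 0.08). These 4 genes with Syvn1 are shown for their promoters, after their values were seen. Carrying the element was not sufficient for a call, since Calr, Canx, Pdia6, Dnajc3, Derl3 and Hsp90b1 hold it and had slopes between -0.14 and -0.05. All of these are in the ER chaperone list, where Hspa5, Syvn1 and Creld2 were the only carriers that fell.

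Of 22 cytosolic heat shock genes tested 9 fell, against 2.03% of all tested genes, none rose and 13 were not called. The median slope of the list was -0.14. Hsph1, an exchange factor of the HSP70 machine, was at 16.8 to 65.8 CPM in PP (median 43.7 CPM), at 16.5 to 28.8 CPM in PL (median 22.1 CPM) and at 12.5 to 62.6 CPM in LL (median 19.4 CPM). Of the 19 PP livers 15 were above the highest PL liver, and 1 LL liver was above the PP median (slope -0.42, SE 0.08, edgeR adjusted p = 0.000732). Hspa8, the constitutive HSP70, had medians of 1058 CPM (PP), 693 CPM (PL) and 718 CPM (LL) (slope -0.22, SE 0.05, edgeR adjusted p = 0.00316). Fkbp4, an HSP90 co-chaperone of steroid receptors, changed less but more evenly among livers (slope -0.14, SE 0.03, edgeR adjusted p = 0.00047), as did Dnajb2 outside the list (slope -0.14, SE 0.03). Dnajb1, the HSP40 co-chaperone, had a slope of -0.26 (SE 0.05). The mitochondrial pair Hspd1 and Hspe1, named after their values were seen, had slopes of -0.01 and -0.02 and was not called. The count of falling members was 8 without the livers with most Rn18s-rs5 or with most blood markers, 5 with the clock component as covariate, 4 with Rn18s-rs5 as covariate and 1 with the length offset.

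**Figure D3:**
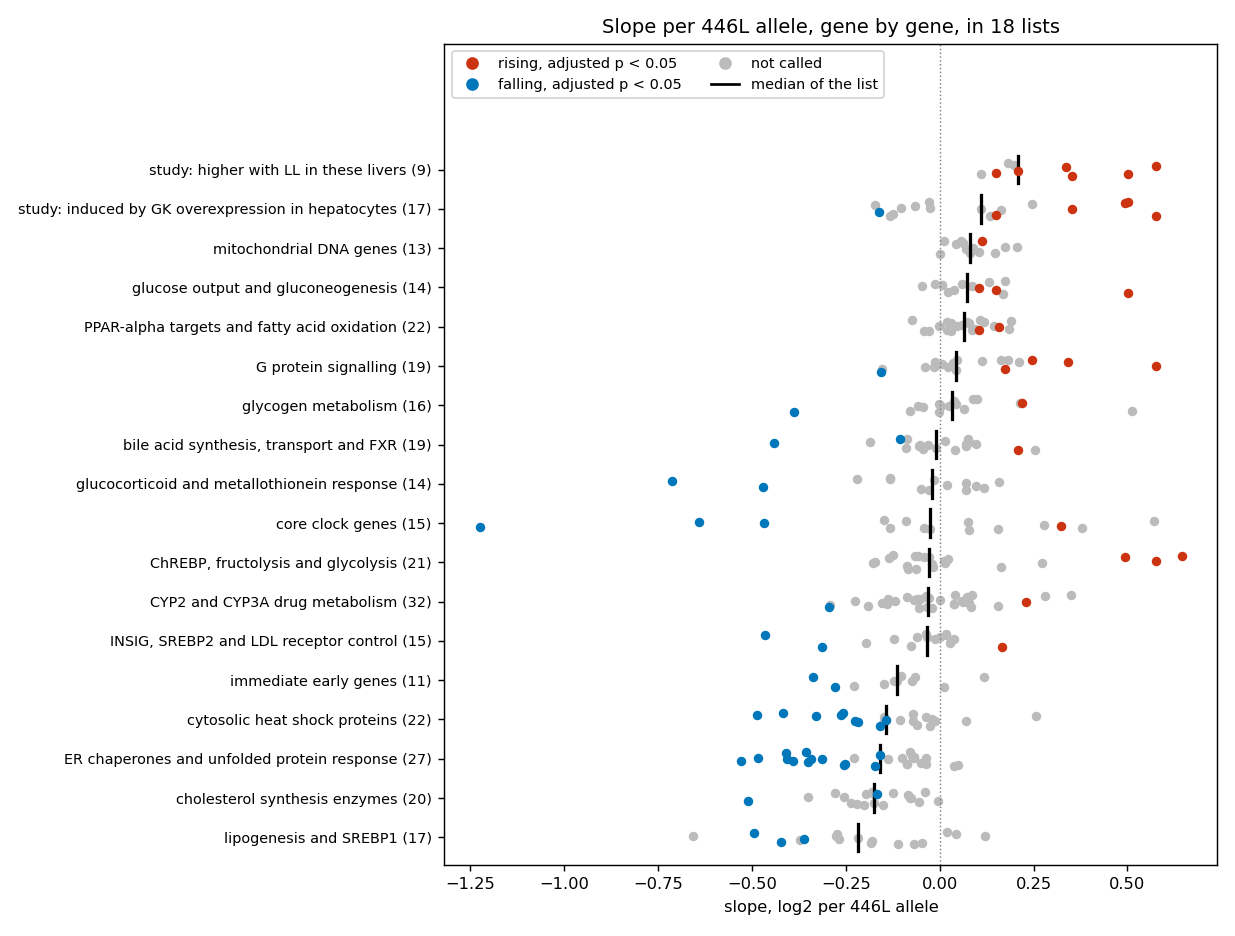
Slope (log2 per 446L allele) of every tested gene in 18 lists that have at least 9 tested members and 1 called member, with the number tested in brackets, black bars at the list medians and colours for genes called rising or falling. The ER chaperones (13 of 27) and the heat shock proteins (9 of 22) hold the most falling genes, and all 20 cholesterol synthesis enzymes lie below 0.

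Fewer genes of fat and sterol synthesis were called. Of 17 genes of lipogenesis 3 fell, against 2.03% of all tested genes, and none rose. A negative slope was found in 14, and the median of the list was -0.22. Acly, ATP citrate lyase, which supplies cytosolic acetyl-CoA, was at 231 to 2044.5 CPM in PP (median 602 CPM), at 194 to 1119.9 CPM in PL (median 470 CPM) and at 167 to 647 CPM in LL (median 319 CPM). The upper end of the range fell more than the lower end, and the slope was -0.49 (SE 0.12, edgeR adjusted p = 0.00861). Gpam, the acyltransferase that starts triglyceride synthesis (slope -0.36, SE 0.10), and the fatty acid elongase gene Elovl6 (slope -0.42, SE 0.12) also fell, with edgeR adjusted p of 0.0249 and 0.0254. Both calls were lost without PP mouse 6, which left 1 of the 17 called, and that of Elovl6 also without PP mice 16 or 18, whereas 5 fell without LL mouse 42. Srebf1 had a slope of 0.12 (SE 0.08, edgeR adjusted p = 0.537) and is named after its value was seen. No member was called with the clock component or Rn18s-rs5 as covariate or with the length offset, although the list medians in these settings were -0.25, -0.17 and -0.28.

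All 20 enzymes of cholesterol synthesis had a negative slope, and 2 of them fell, where 2.03% of all tested genes did. At an unadjusted p below 0.05, 10 of the 20 fell, where 7.88% of all tested genes did. Mvd, mevalonate diphosphate decarboxylase, had medians of 11 CPM (PP), 10.2 CPM (PL) and 4.23 CPM (LL) (slope -0.51, SE 0.14, edgeR adjusted p = 0.0223), and Sc5d, a late desaturase, had medians of 390.4, 401 and 302 CPM (slope -0.17, SE 0.05, edgeR adjusted p = 0.0371). The call of Sc5d was lost in 14 of 55 fits without 1 liver. The decrease in both lay between PL and LL. The median slope was -0.17, being -0.24 without GKA and -0.10 with GKA, and no enzyme was called with either covariate, with the length offset, or without the livers with most Rn18s-rs5 or blood markers.

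Among 15 regulators of sterol synthesis and uptake, 2 fell, Insig1 among them, and Npc1 rose, where 2.03% of all tested genes fell and 1.5% rose. Insig1, the ER anchor that retains SREBP when sterols are sufficient and is itself an SREBP target, was at 163 to 364 CPM in PP (median 218 CPM), at 73.4 to 357 CPM in PL (median 209.7 CPM) and at 70.6 to 257 CPM in LL (median 109.9 CPM). Of the LL livers 16 of 20 were below the lowest PP liver, while 8 of 16 PL livers were at or above the PP median, and the slope was -0.46 (SE 0.09, edgeR adjusted p = 0.00116). Npc1, the lysosomal cholesterol exporter, had a slope of 0.16 (SE 0.04, edgeR adjusted p = 0.0165), and its call was lost with the clock component or Rn18s-rs5 as covariate and with the length offset, where 1 gene of the list fell and none rose. Of the genes of sterol export through LXR none of 12 was called, and Abcg8 (slope 0.20, SE 0.06) and Scarb1 (slope 0.13, SE 0.04) had the smallest p, with an edgeR adjusted p of 0.0594 for each.

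Of 19 genes of bile acid synthesis and transport, Nr1h4 rose and Nr0b2 and Baat fell, where 1.5% of all tested genes rose and 2.03% fell. Nr1h4, the bile acid receptor FXR, was at 51.2 to 76.9 CPM in PP (median 68.7 CPM), at 65 to 89.7 CPM in PL (median 76.5 CPM) and at 61 to 115 CPM in LL (median 91.8 CPM). The upper end of its range rose at each allele, and the slope was 0.21 (SE 0.03, edgeR adjusted p = 3.88e-05). Nr0b2, the FXR-induced repressor SHP, moved the other way, from a median of 29.9 CPM to 23.8 and 18.4 CPM (slope -0.44, SE 0.09, edgeR adjusted p = 0.00122). Baat, which conjugates bile acids, had a slope of -0.11 (SE 0.03, edgeR adjusted p = 0.03), lost without PP mice 1 or 19 or LL mouse 53. Slc10a2, the sodium-dependent bile acid transporter, was among the 12 falling genes with the smallest p, with medians of 28.8 CPM (PP), 16.3 CPM (PL) and 15 CPM (LL) (slope -0.42, SE 0.08, edgeR adjusted p = 0.000588).

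In glycogen metabolism (16 genes tested), Gys2, the liver glycogen synthase, rose from a median of 131 CPM in PP livers to 159 CPM for PL and 165 CPM for LL (slope 0.22, SE 0.05, edgeR adjusted p = 0.00754). Ppp1r3b, the subunit that directs protein phosphatase 1 to glycogen and activates the synthase, fell from 188 CPM to 92.7 CPM and 104 CPM (slope -0.39, SE 0.08, edgeR adjusted p = 0.00156). Neither was called with the clock component as covariate, and over all tested genes 1.5% rose and 2.03% fell. The other falling genes with the smallest p were Mtmr4, a phosphoinositide phosphatase of endosomes (slope -0.33, SE 0.05), Pxdc1 (slope -0.30, SE 0.05), Tmem41b, an ER lipid scramblase (slope -0.28, SE 0.05), and Lgalsl (slope -0.37, SE 0.07). Their edgeR adjusted p were 3.82e-05, 9.02e-05, 0.00047 and 0.000491, and that of Lgalsl was 0.0908 with the clock component as covariate. These genes were not called with the length offset, nor were Herpud1, Syvn1, Fkbp4 and Dnajb2. Syvn1 and Manf were not called with the clock component as covariate, nor in the livers without GKA alone or with GKA alone.

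Of 15 core genes of the molecular clock, which sets daily rhythms of liver metabolism, 1 rose and 3 fell. The shares over all tested genes were 1.5% and 2.03%, and the median slope of the list was -0.03. Bmal1 had medians of 7.52 CPM (PP), 2.64 CPM (PL) and 3.13 CPM (LL) (slope -0.64, SE 0.15), its dimer partner Npas2 of 2.7, 0.372 and 0.464 CPM (slope -1.22, SE 0.23), Cry1 of 5.56, 2.75 and 3.07 CPM (slope -0.47, SE 0.10) and, from the output factors, the repressor Nfil3 of 16.4, 7.53 and 8.41 CPM (slope -0.37, SE 0.09). In these 4 the medians of PL and LL were both below that of PP. All 4 fell, with edgeR adjusted p of 0.00668, 0.000994, 0.00419 and 0.0119, and none was called once the clock component, which is built from these genes, entered the model. The call of Npas2, whose counts were low, was also lost with DESeq2 and with limma, and those of the other 3 with the length offset. The other 3 of the 4 output factors, Hlf (slope 0.17, SE 0.05), Tef (slope 0.26, SE 0.09) and Dbp (slope 0.56, SE 0.19), had positive slopes that were not called, with edgeR adjusted p of 0.058, 0.0955 and 0.0871, and DESeq2 called all 3 rising. These 3 are named after their values were seen. The median slope of the output list was 0.21. Bhlhe40, a repressor of the same loop, rose (slope 0.32, SE 0.06, edgeR adjusted p = 0.00073) and remained called with that covariate (adjusted p = 0.0452). Of the core genes 2 or 3 rose when any of 12 single livers was left out (PP mice 3, 13, 14 and 20, PL mice 26, 27 and 35, and LL mice 38, 40, 42, 49 and 56). Of 11 immediate early genes, which mark recent stimulation, Zfp36 (slope -0.28, SE 0.06) and Btg2 (slope -0.34, SE 0.10) fell, the latter losing its call in 10 of 55 fits without 1 liver. Of 14 genes of the glucocorticoid and metallothionein response, Tsc22d3 (slope -0.47, SE 0.10) and Zbtb16 (slope -0.71, SE 0.18) fell, and neither was called with the clock component as covariate. Their edgeR adjusted p were 0.00372, 0.0346, 0.00417 and 0.0111.

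Among 19 genes of G protein signalling, Rgs12 (slope 0.34, SE 0.07), Gna12 (slope 0.17, SE 0.04), Adcy6 (slope 0.24, SE 0.07) and Rgs16 rose and the adrenergic receptor gene Adra1b fell (slope -0.16, SE 0.04). The slope of Adcy6 was -0.42 with the length offset, where no gene of the list was called, and none was called with the clock component as covariate. Of 22 PPAR-alpha targets, Cpt1a, the gate of mitochondrial fatty acid oxidation (slope 0.16, SE 0.04, edgeR adjusted p = 0.0129), and Creb3l3 rose, and 18 had a positive slope with a median of 0.07. None of the 22 was called with the clock component as covariate or with the length offset. Of 13 genes of the mitochondrial genome mt-Nd1 rose (slope 0.11, SE 0.03), and 2 rose without PP mouse 20 or LL mouse 48, whereas none rose with Rn18s-rs5 as covariate. Of 32 genes of the CYP2 and CYP3A families Cyp2c29 fell (slope -0.30, SE 0.08) and Cyp2j9 rose (slope 0.23, SE 0.07), the latter with a call lost in 26 of 55 fits without 1 liver. Neither was called with either covariate or with the length offset. For comparison with these lists, 1.5% of all tested genes rose and 2.03% fell, near the share that 1 call each way makes of 32.

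Many lists held no called gene. These were insulin signalling and FOXO1 targets (18 tested, median slope 0.03), hepatokines (19, 0.01), acute phase proteins (15, 0.02), urea cycle and amino acid breakdown (16, 0.02), NRF2 targets (16, -0.02), pericentral (12, 0.05) and periportal genes (12, 0.03), cytosolic ribosomal proteins (82, 0.04), nuclear respiratory chain subunits (77, 0.01) and major urinary proteins (22, 0.10). The members with the smallest p in the insulin and periportal lists were Foxo3 (slope -0.15, adjusted p = 0.0707) and Igfbp1 (slope -0.39, adjusted p = 0.0933), and Pck1 (slope 0.17, adjusted p = 0.422) and Sds (slope 0.17, adjusted p = 0.447), in edgeR. No tested marker of hepatocytes, macrophages, stellate cells, endothelium, bile duct, lymphocytes, blood or pancreas was called, and no muscle marker passed the filter. Only 2 of 7 bile duct, 2 of 12 lymphocyte and 1 of 11 pancreas markers passed it, so these types were hardly assessed. Of the pancreas markers 8 were at 0 in every liver. The 5 tested blood markers had a median slope of 0.32, and 4 rose at an unadjusted p below 0.05, where 7.59% of all tested genes did. Of the 5 adipose markers tested, Lipe, hormone-sensitive lipase, rose (slope 0.28, SE 0.07, edgeR adjusted p = 0.0135), 2 rose without PP mouse 13, and none was called with either covariate or with the length offset. All 5 had a positive slope, with a median of 0.38, and 3 rose at an unadjusted p below 0.05, while the defining markers Adipoq, Plin1, Retn and Lep had a median of 0 CPM. In bulk tissue, fewer cells of a type and less RNA per cell cannot be told apart.

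The lists that the study drew from its own results are given for reference. Of 17 genes that the study named from its cultured hepatocytes, 5 rose (Slc25a47, Klf10, Slc2a2, G6pc1 and Rgs16), where 1.5% of all tested genes did. Rnf144b fell, and the median slope of the 17 was 0.11, with 9 slopes positive and 8 negative. At an unadjusted p below 0.05, 7 of the 17 rose and 5 fell, where 7.59% and 7.88% of all tested genes did. The number falling at the adjusted p was 0 to 2 without any of PP mice 1, 13 and 14 or LL mouse 42. Of 9 genes that the study picked as raised in LL livers 6 rose, and of 7 picked as reduced 2 fell, Insig1 among them. These 2 lists were chosen on these livers and are not independent evidence of a direction.

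The 27 livers without GKA and the 28 with GKA share no animal, so that each set gives its own slope. Across the 10834 genes in both fits, Pearson's r between the slopes was 0.231 and Spearman's rho 0.255, over genes that are not independent of each other, and 57.8% had the same sign. In the livers without GKA 18 genes rose (0.164%) and 15 fell (0.136%), and in those with GKA 26 rose (0.237%) and 14 fell (0.128%). Of the 33 genes called without GKA, 31 had the same sign with GKA, and 18 passed an unadjusted p of 0.05 in the same direction, where 4.94% of all genes rose and 5.16% fell by that measure. Of the 40 called with GKA, 38 had the same sign without it, and 28 an unadjusted p below 0.05 in the same direction, where 6.39% of all genes rose and 6.23% fell. The 8 genes called in both sets in the same direction were Brap, Crybg2, Gpcpd1, Slc25a47, Txnip, Rn7s1 and Rn18s-rs5, which rose, and Mtmr4, which fell.

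**Figure D4:**
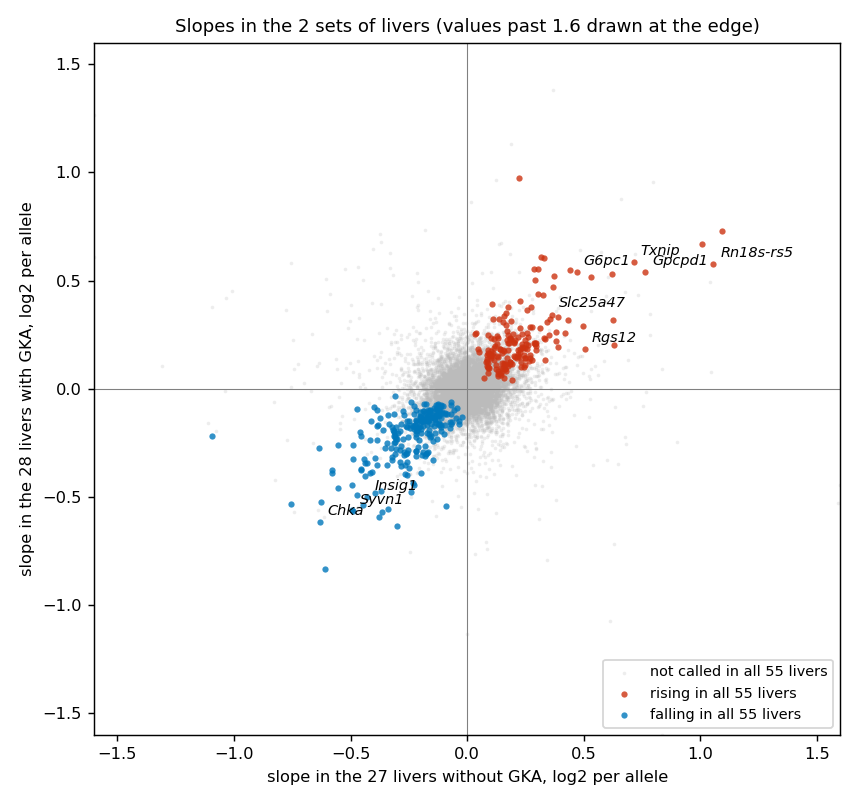
Slope in the 27 livers without GKA (x axis) against the slope in the 28 livers with GKA (y axis), both log2 per 446L allele, for every gene tested in both sets, coloured by the call in all 55 livers. Called genes lie in the lower left and upper right, which the pooled fit favours, and Txnip, Gpcpd1, G6pc1, Chka, Syvn1, Insig1, Slc25a47, Rgs12 and Rn18s-rs5 are labelled.

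No gene passed the test of a difference in slope between livers with and without GKA (0 of 11477, or 0%, with the smallest edgeR adjusted p at 0.161). At an unadjusted p below 0.05 there were 682 (5.94%). DESeq2 called 1 gene. The slopes of named genes were close in some cases and less so in others. Among the closer were Txnip at 0.71 and 0.59, Herpud1 at -0.42 and -0.39 and G6pc1 at 0.47 and 0.54, without and with GKA respectively. Slopes were smaller with GKA for Rn18s-rs5 (1.06 and 0.58), Rn7s1 (1.01 and 0.67), Gpcpd1 (0.76 and 0.54) and Tmem41b (-0.36 and -0.19), differences that did not pass the test. Rgs12 had 0.50 (SE 0.09) and 0.18 (SE 0.10).

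Genes next to the edited locus travel with the dose, so the position of the called genes was examined. Within 5 Mb of Gckr 3 of 78 tested genes were called (3.85%), within 20 Mb 5 of 161 (3.11%), and on the whole of chromosome 5 28 of 753 (3.72%), against 3.53% of all genes. The count within 20 Mb ranged from 3 to 7 when 1 liver was left out, and was 3 without PP mouse 2 or LL mouse 39. The 3 near genes were Gckr itself, Insig1 at 3.19 Mb on its centromeric side (chr5:28276315-28283668, distance -3.19 Mb) and Rgs12 at 3.68 Mb on the other side (chr5:35106715-35196988). Among chromosomes with more than 100 tested genes, the share called ran from 1.03% on chromosome 14 to 7.19% on chromosome 19.

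**Figure D5:**
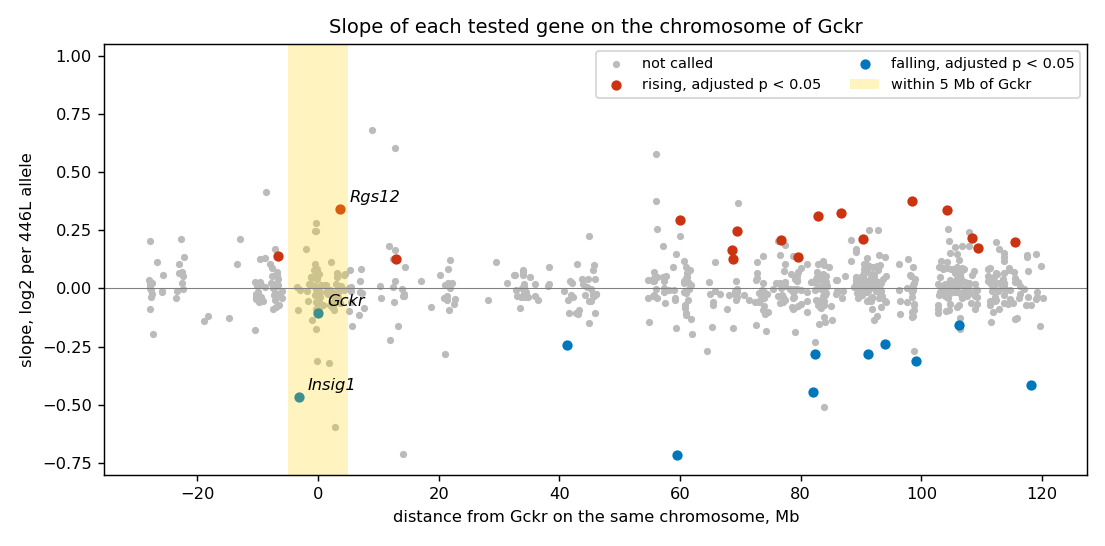
Slope (log2 per 446L allele) of every tested gene on the chromosome of Gckr against its distance from Gckr in Mb, with the span within 5 Mb shaded and called genes in colour. The 3 called genes in the shaded span are Insig1, Gckr and Rgs12, and the other called genes lie along the rest of the chromosome.

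The settings that removed most calls were compared gene by gene. Of the 405 called genes, 90 were called in the same direction with the clock component as covariate, 158 with Rn18s-rs5 as covariate and 34 with the length offset, and the slope kept its sign in 404, 403 and 396 of them. In all 3 settings 15 genes were called, 7 rising and 8 falling. The rising ones were Slc25a47, Txnip, Nr1h4, G6pc1, Nlrp12, Ttbk1 and Gm38455, and the falling ones included Chka, Creb3l2, Slc10a2, Dnajb9, Hsph1, Insig1 and Nr0b2. Nlrp12 (slope 0.37, SE 0.07) and Ttbk1 (slope 0.47, SE 0.09) are named here after their values were seen. Slc25a47 (with Slc25a29), Txnip (with Gm15441), Chka (with Gm16066), Hsph1 (with Gm20005) and Gm38455 (with Shld1) share exon sequence with other genes. Dnajb9, Nlrp12 and Ttbk1 do so too, and the part of shared reads in these slopes was not tested. All 15 overlapped between PP and LL livers.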

How the data were processed

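RNA came from the left lateral lobe of 56 livers, with an integrity number above 6. The authors ran FastQC, trimmed no reads and ran Salmon 1.4.0 on GENCODE M26 transcripts (GRCm39, per the labels). The deposited files hold, per transcript and liver, an estimated count that is not normalised and TPM, besides length and effective length, and replicates were not pooled. Library strandedness and the mode used for it are not given in the sources used here, so overlapping genes (named where a result turns on them) may share reads.

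Of 139225 transcripts, 137570 (98.811%) matched GENCODE M39, holding at least 99.758% of the reads of each liver. Estimated counts were summed to 52230 genes and rounded to whole numbers. The TPM were used only for the levels kept in the tables and are not printed. The slope per allele was fitted in edgeR 4.0.16 and tested by quasi-likelihood (R 4.3.3, TMM, filterByExpr over the 6 groups), with GKA as covariate and Benjamini-Hochberg adjustment over 11477 genes. SE is the slope divided by the square root of F. CPM are TMM-scaled, and log2 CPM used a prior count of 2. The number of livers limits the precision of each slope. Pairs of livers of a group differed by at least 12.1 in mean chi-square per gene, so none was counted as a repeat. P-values set each slope against the spread between these animals. They do not account for batch or time of tissue collection, which the labels do not give.

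Alternatives were DESeq2 1.42.0, limma 3.58.1 (voom with library weights), RLE factors, no filter, a filter of 1 CPM in 8 livers, mouse 7 kept, livers without or with GKA only, PP and LL only, an offset for effective transcript length, the clock component as covariate, robust dispersion, and each liver left out. Settings chosen after seeing the data were log2 Rn18s-rs5 as covariate, and leaving out the 4 livers above 1000 CPM of Rn18s-rs5 or the 2 above 1500 CPM of blood markers. The fit was tested on simulated data.

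Named genes were Gckr, the 12 rising and 12 falling genes with the smallest p (passing over Gm and Rik names, clone names and pseudogenes), at most 4 called members per list or the 2 with the smallest p, and called genes within 5 Mb of Gckr. Of the genes so chosen, 2 are not reported here. Genes, lists and the rule were chosen with earlier results of these data known. Gene lists were described by counts and medians, without a test. Promoters came from RefSeq.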

Additional observations from a re-analysis of the deposited data

Results flagged for a closer look

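Within the 6 groups, 162 sets of values (5 library measures, Gckr and the rising and falling genes with the smallest p, on a log2 scale) were examined for a single liver far from the rest of its group by Dixon's criterion, which chance meets in about 1 of 20 groups, and 16 met it. Among library measures, PL mouse 31 (with GKA) had 8093368 total reads. Rn18s-rs5 was at 1150 CPM in PL mouse 21 (others 238 to 460 CPM) and at 5870 CPM in LL mouse 44 (others 231 to 1080 CPM). Blood markers summed to 293 CPM in PL mouse 25, 1190 CPM in PL mouse 35, 1650 CPM in LL mouse 37 and 2960 CPM in LL mouse 53.

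Slc25a47 was low in PP mouse 19 (186 CPM), PL mouse 33 (357 CPM) and LL mouse 44 (414 CPM). Txnip was at 71.4 CPM in PP mouse 6, against 17.6 to 29.5 CPM in the others of the group. The remaining values were Tmed5 at 24.3 CPM in PP mouse 16, Palmd at 34 CPM in PL mouse 28, Creb3l2 at 8.1 CPM in PL mouse 23 and at 25.4 CPM in LL mouse 42, and Slc10a2 at 6.72 CPM in LL mouse 52. Their part in the slopes was addressed only by leaving out 1 liver at a time.

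PP mouse 7, which entered no comparison, had a summed level of macrophage markers of 685 CPM, above the 258 to 519 CPM of the other untreated PP livers.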

How the results depend on the processing

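The counts of 172 rising and 233 falling genes stayed within 1.5 times under DESeq2, RLE factors, no or a stricter filter, mouse 7 kept, PP and LL livers only, robust dispersion and limma. They moved further in the livers without GKA only (18 and 15) or with GKA only (26 and 14), which are fewer livers, and with the length offset (17 and 20), the clock component (62 and 58) or Rn18s-rs5 (81 and 92) as covariate. Without the livers with most Rn18s-rs5 154 genes fell, and without those with most blood markers 149. The cause was not tested. Leaving out 1 liver gave 135 to 212 rising and 178 to 321 falling genes. The count of genes whose slope differed with GKA (0) became 1 with DESeq2 and 5 without a filter, and ranged from 0 to 3 without 1 liver (PP mice 18 and 19 and PL mouse 27). The slope reversed for Crybg2 (-0.053) and Adcy6 (-0.42) with the length offset, and for Rn18s-rs5 (-5.85e-06) with itself as covariate, by construction. Slopes of named genes kept their side of the threshold in 1240 of 1481 other comparisons and in 5310 of 5445 without 1 liver. No paired analysis was possible because no mouse number occurs in more than 1 group. Low counts limit Npas2, which had 0 reads in some livers of each genotype.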
